A study of Mus musculus with 12 samples.

Results

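The brains of 10-day-old mice that lack both copies of Gja9 were compared with those of mice that lack 1 copy. The members are the 8 samples of these genotypes, of 12 in the series, chosen by their labels: 4 Gja9 (-/-) samples, K1 to K4, here called Gja9_null, and 4 Gja9 (+/-) samples, H1 to H4, here called Gja9_het. All are labelled as brain of C57Bl/6j mice at P10 (postnatal day 10), and no treatment or sex is given. The remaining 4 samples are wildtype mice of the same age and strain label. The comparison asks what differs between total and partial loss of the gene, so both groups carry at least 1 disrupted copy. The sources used here do not state how the allele was made or whether littermates were used. Each group has 4 samples, which the design text calls biological replicates. The labels do not state that each came from a separate animal, so p-values measure only the spread between samples of this series. That spread was estimated from all 12 samples, wildtype included.

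Gja9 in the labels is the gene that RefSeq now names Gjd2, on chromosome 2. It encodes connexin36. Connexins assemble into gap junction channels, which pass ions and small molecules directly between touching cells. Connexin36 is the main connexin of neurons and forms electrical synapses, for example between inhibitory interneurons of the cortex, in the inferior olive and in the retina. Astrocytes and oligodendrocytes couple through other connexins, such as Gja1 (connexin43).

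RNA was hybridised to spotted cDNA arrays with 2 colours, and both colours of an array held samples of the same genotype. Each group lies on 2 arrays, the first taken to hold samples 1 and 2 and the second samples 3 and 4. This pairing is read from the values: the probe-wise difference between samples 1 and 3 correlated with that between samples 2 and 4 at r = 0.933 in Gja9_null and 0.919 in Gja9_het. A value is the log2 signal of a probe relative to the mean signal of its sample, so 0 is the sample's mean signal. Of 28704 probes, 13443 had a value in every sample. Probes of 1 gene (clones) were averaged, which gave 9514 features, 6427 of them genes. The targeted gene itself could not be checked, since 0 probes are assigned to Gjd2. Of the brain markers, Map2, a dendritic microtubule protein, lay between 2.05 and 2.71 in the 8 samples, and Mbp, myelin basic protein, between 2.36 and 3.71, above the mean signal in each. In whole brain RNA, fewer cells of a type and less RNA per cell cannot be told apart.

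In the Gja9_null samples 25 of 9514 features (0.263%) were lower than in Gja9_het and 1 (0.0105%) was higher, 0.273% in all, by limma with Benjamini-Hochberg adjustment at an adjusted p under 0.05. Of the 25 lower features, 13 are single genes. They include 2 cytokine receptor subunits, Il17rc and Il20rb, the transcription and chromatin genes Cdk13, Smarcad1 and Rprd1b, and the enzyme genes Ces2a, Rnaseh1, Ak8 and Gmds. Differences ranged from -2.53 log2 units in Il17rc to -1.79 in Aagab. The 1 higher feature is a probe without a single gene, at 2.12 ± 0.36 log2 units (SE, adjusted p = 0.028, limma). For 4 of the 13 genes, Il17rc, Sbf1, Ces2a and Rprd1b, the call also held after centring along the array, described further on.

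The promoters of these 4 genes are shown because they are the genes called both ways. Each is 300 bases long, from 250 before to 50 after the start of transcription, from RefSeq on GRCm38.p6. They lie at chr6:113471205-113471504 on the plus strand (Il17rc), chr15:89315262-89315561 on the minus strand (Sbf1), chr8:104733753-104734052 on the plus strand (Ces2a) and chr2:158028247-158028546 on the plus strand (Rprd1b). Capitals mark matches on either strand to the letters GGGCGG (the GC box), CCAAT (the CCAAT box), TATAAA (the TATA box) and CACGTG (an E-box).
Il17rc: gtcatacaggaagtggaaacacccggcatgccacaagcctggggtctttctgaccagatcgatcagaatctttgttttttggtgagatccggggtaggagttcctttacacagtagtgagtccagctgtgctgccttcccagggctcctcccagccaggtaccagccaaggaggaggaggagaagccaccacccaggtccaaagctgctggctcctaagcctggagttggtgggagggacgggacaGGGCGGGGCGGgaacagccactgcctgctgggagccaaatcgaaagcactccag
Sbf1: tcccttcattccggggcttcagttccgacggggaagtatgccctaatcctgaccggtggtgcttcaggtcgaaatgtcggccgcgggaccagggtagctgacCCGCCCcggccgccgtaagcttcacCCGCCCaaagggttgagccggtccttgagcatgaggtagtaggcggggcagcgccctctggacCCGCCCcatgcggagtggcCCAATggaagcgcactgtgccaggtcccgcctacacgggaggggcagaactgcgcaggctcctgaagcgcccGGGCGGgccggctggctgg
Ces2a: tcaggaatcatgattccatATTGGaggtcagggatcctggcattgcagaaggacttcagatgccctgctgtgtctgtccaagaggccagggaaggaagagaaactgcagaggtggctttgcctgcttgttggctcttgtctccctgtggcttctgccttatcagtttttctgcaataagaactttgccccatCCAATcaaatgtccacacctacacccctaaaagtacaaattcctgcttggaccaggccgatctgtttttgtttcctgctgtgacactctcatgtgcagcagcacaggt
Rprd1b: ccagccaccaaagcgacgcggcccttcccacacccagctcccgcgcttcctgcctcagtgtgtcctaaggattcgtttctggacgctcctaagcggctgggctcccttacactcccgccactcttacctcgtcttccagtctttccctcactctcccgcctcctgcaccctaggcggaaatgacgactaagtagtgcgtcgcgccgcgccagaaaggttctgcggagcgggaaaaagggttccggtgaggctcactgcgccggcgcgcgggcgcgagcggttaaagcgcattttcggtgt

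The 4 promoters share no marked motif. Il17rc has 2 GC boxes, which overlap by 1 base, and Sbf1 has 4 GC boxes and 1 CCAAT box. Ces2a has 2 CCAAT boxes, and in Rprd1b none of these letters occurred in this window. Of 32851 RefSeq promoters of the same length, 35.7% hold a GC box and 37.4% a CCAAT box, against 13.6% with a TATA box and 7.15% with an E-box. The dinucleotide CG occurs 31 times in Rprd1b, 26 times in Sbf1, 7 times in Il17rc and 1 time in Ces2a, with a median of 7 over all these promoters. A match is a description of the letters, and no binding was measured.

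Il17rc encodes a subunit of the receptor for cytokines of the interleukin-17 family. Its log2 signal was -3.82, -4.15, -3.11 and -3.13 in the Gja9_null samples and -1.15, -0.95, -1.07 and -0.89 in the Gja9_het samples. The groups did not overlap, and each Gja9_null array lay below both Gja9_het arrays. The difference was -2.53 ± 0.44 log2 units (SE, 4 samples on 2 arrays per group, adjusted p = 0.0345, limma). Il20rb, a receptor subunit for cytokines of the interleukin-20 group, fell by 1.94 ± 0.33 (adjusted p = 0.028, limma).

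Sbf1 encodes an inactive member of the myotubularin phosphatase family that acts on endosomal Rab proteins. It read -4.72, -4.41, -3.54 and -3.65 in Gja9_null and -1.40, -1.24, -2.15 and -2.04 in Gja9_het. The groups were apart, although the arrays within each group also differed clearly. The difference was -2.37 ± 0.40 (adjusted p = 0.028, limma). Ces2a, a carboxylesterase that hydrolyses esters and lipids, read -4.32, -4.26, -3.56 and -3.34 in Gja9_null against -1.85, -1.84, -1.42 and -1.35 in Gja9_het. All 4 Gja9_null samples lay below the Gja9_het samples, with a difference of -2.25 ± 0.41 (adjusted p = 0.0394, limma).

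Rprd1b encodes a protein that binds the C-terminal domain of RNA polymerase II, and it is the only called gene with more than 1 clone. Its mean signal was -3.27, -3.06, -3.12 and -2.69 in Gja9_null and -1.35, -1.22, -1.03 and -1.01 in Gja9_het, with no overlap. The difference was -1.88 ± 0.36 (adjusted p = 0.0463, limma). Its 2 clones had the same direction and unequal size, at -0.81 ± 0.36 and -2.95 ± 0.57.

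Cdk13, a cyclin-dependent kinase that phosphorylates RNA polymerase II, read -5.16, -5.20, -3.97 and -3.65 in Gja9_null and -2.09, -2.01, -2.20 and -2.11 in Gja9_het. The Gja9_het arrays were alike and the Gja9_null arrays were over 1 log2 unit apart, both below Gja9_het. The difference was -2.40 ± 0.41 (adjusted p = 0.028, limma). Smarcad1, a chromatin remodelling ATPase, fell by 2.19 ± 0.41 (adjusted p = 0.0436, limma). It had the same pattern, at -5.10, -5.11, -3.64 and -3.79 in Gja9_null against -2.17, -2.14, -2.26 and -2.30 in Gja9_het.

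Rnaseh1, a nuclease that degrades RNA paired with DNA, differed by -2.12 ± 0.31, and Ak8, an adenylate kinase of motile cilia, by -2.07 ± 0.35. Gmds, which makes a precursor of GDP-fucose, differed by -1.91 ± 0.31, and the membrane protein gene Tmem176a by -1.87 ± 0.31. These 4 genes each had an adjusted p of 0.028 (limma). Dmkn, a secreted protein first known from epidermis, differed by -1.89 ± 0.34 (adjusted p = 0.0394, limma), and Aagab, an assembly factor of clathrin adaptors, by -1.79 ± 0.35 (adjusted p = 0.0467, limma). In all 26 called features the 4 Gja9_null values lay outside the range of the 4 Gja9_het values. Of all 9514 features, 32.7% had groups apart in this way, 22.5% with Gja9_null below and 10.2% with it above.

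**Figure D1:**
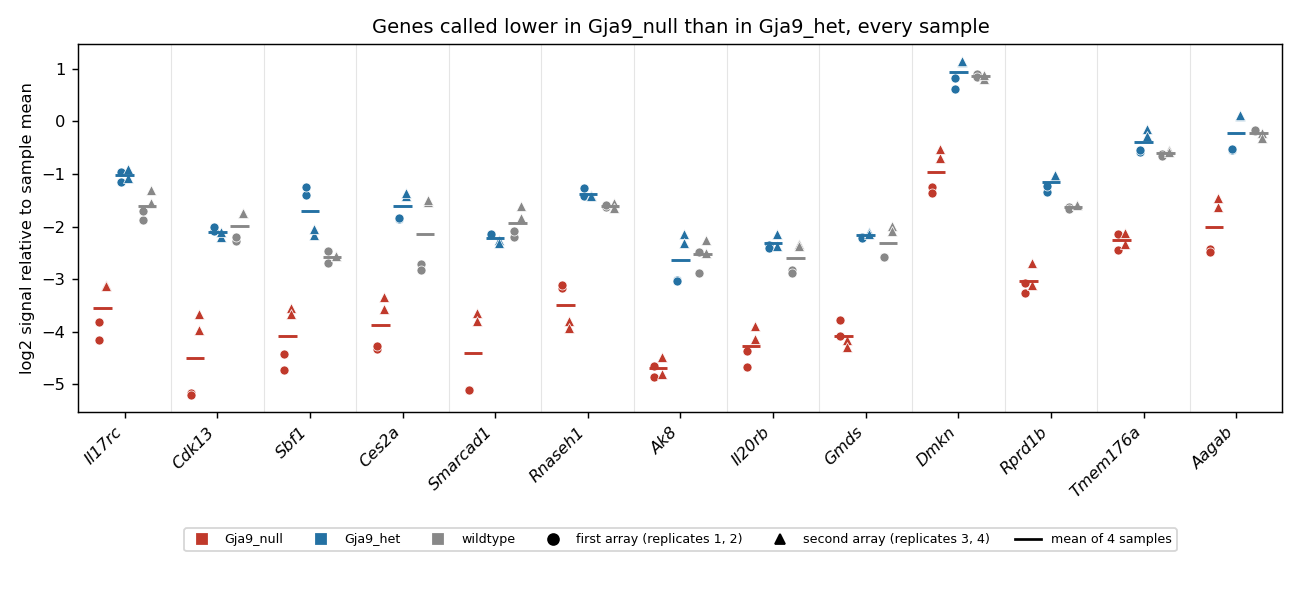
Log2 signal relative to the sample mean (vertical axis) of the 13 single genes called lower, for every Gja9_null (red), Gja9_het (blue) and wildtype (grey) sample; circles are the first array, triangles the second, bars the mean of 4. In each gene all red points lie below all blue points, and in Cdk13 the red arrays are themselves apart, at -5.16 and -5.20 against -3.97 and -3.65.

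No named gene passed the test as higher, and the 5 with the smallest unadjusted p are given as values. Tmem63a, an osmosensitive cation channel, read 0.14, 0.09, -0.37 and -0.44 in Gja9_null and -1.37, -1.45, -2.14 and -2.31 in Gja9_het. The groups did not overlap, and the difference was 1.67 ± 0.35 (adjusted p = 0.0652, limma). Slc1a3, the glutamate transporter GLAST of astrocytes and radial glia, read 2.82, 3.07, 1.94 and 2.36 against 1.12, 1.36, 0.96 and 1.19. It too had no overlap, with a difference of 1.39 ± 0.31 (adjusted p = 0.0724, limma). The others were Rnf114, a ubiquitin ligase, at 1.47 ± 0.37, Irgq, of the immunity-related GTPase family, at 1.18 ± 0.29, and Rad23b, a DNA repair and proteasome shuttle factor, at 1.11 ± 0.28.

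The calls were not spread evenly over the probe numbers. The probes were divided by number into 48 stretches of 598. The last 3 stretches hold 5.42% of the features and 20 of the 25 lower calls, 16 of them in stretch 47 alone. The genes called there include Il17rc, Ces2a, Cdk13 and Smarcad1. A gene with several clones is placed by the mean of its probe numbers, so Rprd1b is not counted there. Its clone at -2.95 nevertheless lies in stretch 47, and its clone at -0.81 in stretch 34. Sbf1 lies in stretch 3, where the median difference was -0.60. Over the single probes of stretch 47 the median difference was -0.81 log2 units, and over those of stretch 18 it was 0.47. The first Gja9_null array varied most along the probe numbers. Its median deviation from the probe means ranged from -1.35 to 0.48 over the stretches, against -0.54 to 0.47 on the second Gja9_null array, -0.31 to 0.50 on the first Gja9_het array and -0.20 to 0.32 on the second. Without the probes of the last 3 stretches, 0 of 9006 features were called by limma, so the calls in other stretches were lost too. The smallest adjusted p was then 0.151, and 1187 features had an unadjusted p under 0.05.

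**Figure D2:**
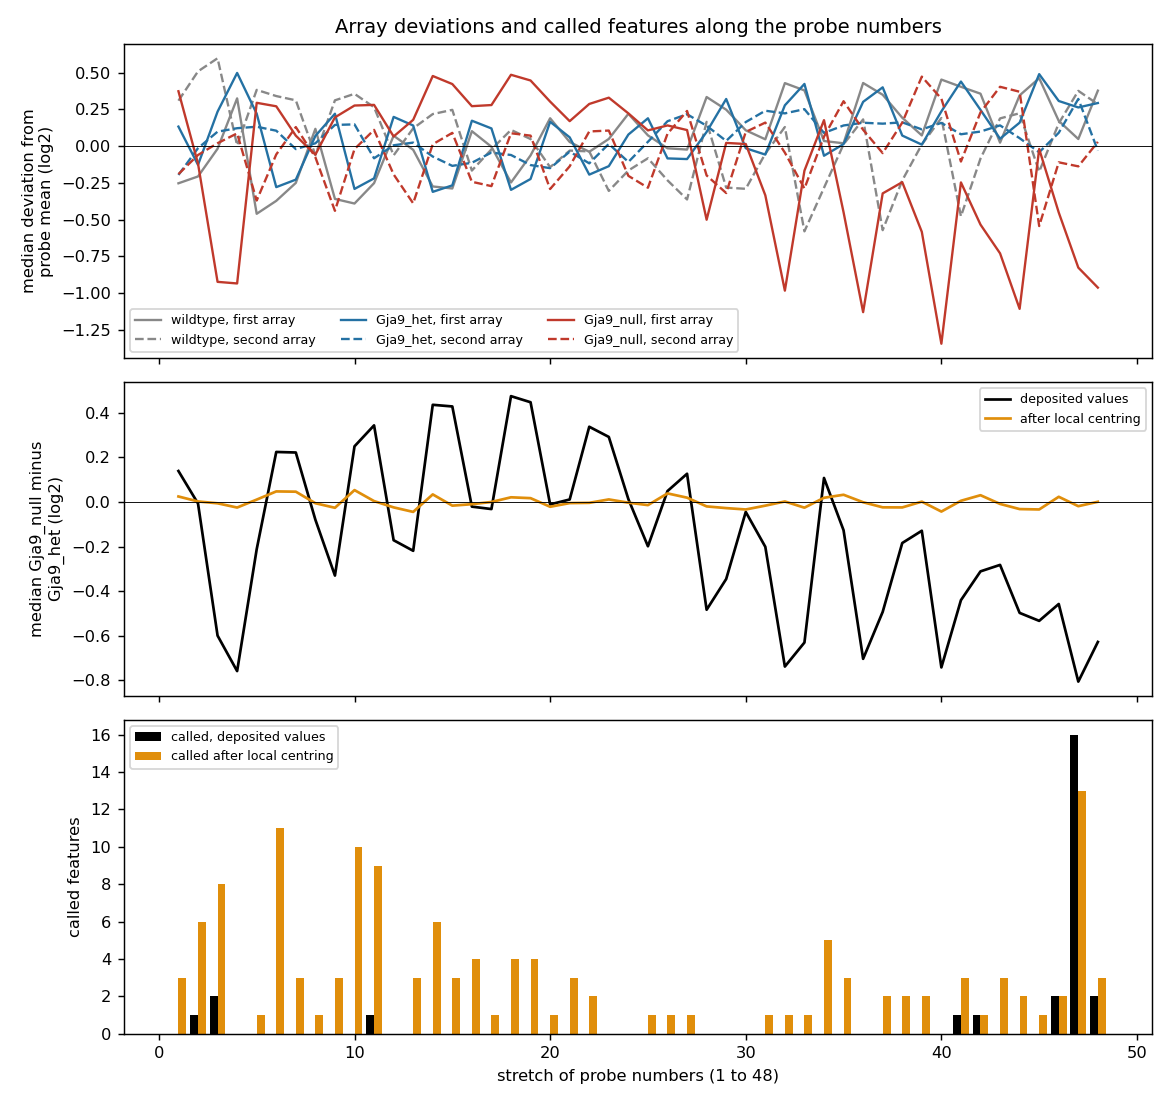
Top, median deviation of each array from the probe means (log2) in 48 stretches of probe numbers. Middle, median Gja9_null minus Gja9_het difference before (black) and after (orange) local centring. Bottom, number of called features per stretch. The first Gja9_null array (solid red) falls to -1.35, the black line reaches -0.81 in stretch 47, and 16 black calls stand there.

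The called features were also dim in Gja9_null. In 23 of the 25 lower features the Gja9_null mean was among the dimmest 25% of features, and in 13 the Gja9_het mean was as well. The median Gja9_null mean of the 25 stood at percentile 1.90 of all features, and that of Gja9_het at percentile 24.2. The deposited values do not show how far a signal lay above background. Over all features Gja9_null was lower by a median of 0.17 log2 units, since the median difference was -0.17, and 63.1% of features had a difference below 0. At an unadjusted p under 0.05, 11.3% of features were lower and 3.64% higher (limma). Centring each sample on its median moved the median difference to -0.06, quantile normalization to -0.01 and cyclic loess to -0.02, and 0 features were called under each by limma, with 1300, 1156 and 1175 at an unadjusted p under 0.05. The 13 called genes stayed below 0 under these and every other alternative computed for them, with -0.18 in Aagab as the smallest difference. Only 4 of the 13 were left without the dimmest 25% of probes, and 2 without the last 3 stretches. The genes were picked as low on these same samples, so their sign is no separate support.

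When both colours of each array were averaged, so that each group had 2 values, 0 features were called by limma. The smallest adjusted p was 0.0724, and 1022 features were lower and 253 higher at an unadjusted p under 0.05. Without an array block, which counts both colours as independent samples, 2119 features were called. Leaving out wildtype sample 3 or Gja9_het sample 2, 3 or 4 also left 0 calls by limma, with 1336, 1302, 1263 and 1371 features at an unadjusted p under 0.05 and a smallest adjusted p between 0.0509 and 0.0555. Without any other single sample 13 to 20 were called. The 2 colours of an array were close to duplicates, with r = 0.986 and 0.987 on the Gja9_null arrays and 0.990 and 0.991 on the Gja9_het arrays. Between arrays of the same genotype r was at most 0.878 in Gja9_null and 0.922 in Gja9_het.

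Local centring removes from each sample its median deviation over 50 probe numbers on either side. After it, 89 features (0.935%) were lower and 45 (0.473%) higher in Gja9_null, 1.41% in all, by limma at an adjusted p under 0.05. These include 51 single genes lower and 25 higher. The lower calls were still uneven along the probe numbers. Of the 89, 13 lay in the last 3 stretches, which hold 5.42% of the features. Stretch 47 held 11, and stretches 6, 10 and 11 held 9, 8 and 8. Of the 45 higher calls, 5 lay in the last 3 stretches. Of the 26 features called on the deposited values, 11 were called again, 10 lower and 1 higher. Sbf1 and Ces2a stood at -1.65 ± 0.23 and -1.90 ± 0.29, both with an adjusted p of 0.0193 (limma). Il17rc stood at -1.33 ± 0.24 (adjusted p = 0.0247) and Rprd1b at -1.33 ± 0.22 (adjusted p = 0.0197, limma). The other 9 genes no longer passed. Among these, Cdk13 went from -2.40 to -0.84, Smarcad1 from -2.19 to -0.53, Gmds from -1.91 to -0.23 and Aagab from -1.79 to -0.18. Of the 5 higher genes given as values, Slc1a3 in stretch 14 went from 1.39 to 0.91 and Rnf114 in stretch 18 from 1.47 to 1.07. In stretch 22, Tmem63a went from 1.67 to 1.36 and Rad23b from 1.11 to 0.78. The deposited median differences of stretches 14, 18 and 22 were 0.44, 0.47 and 0.34. The 2 clones of Irgq were unequal, at 1.67 and 0.69 before and 1.88 and 0.22 after centring. With local centring and array means together, 0 features were called by limma, with 915 lower and 675 higher at an unadjusted p under 0.05.

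**Figure D3:**
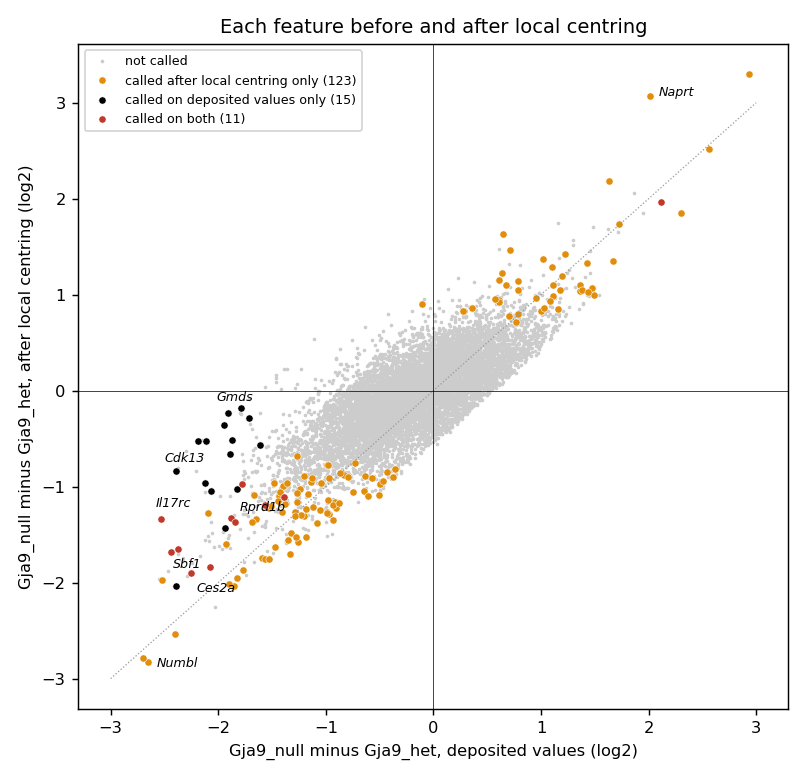
Difference between Gja9_null and Gja9_het of each feature on the deposited values (horizontal, log2) and after local centring (vertical, log2). Red marks the 11 features called both ways, black those called on the deposited values only and orange those called after centring only; Gmds lies near 0 after centring, at -0.23, while Ces2a stays at -1.90.

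Of the 20 genes of largest change after local centring, 10 in each direction, Sbf1 and Ces2a had been called on the deposited values. The adjusted p of the 20 lay between 0.0193 and 0.0445 (limma). Numbl, a Numb-like adaptor that inhibits Notch in neural progenitors, read -5.11, -4.96, -3.19 and -3.03 in Gja9_null and -1.45, -1.46, -1.38 and -1.38 in Gja9_het. The groups were apart and the Gja9_null arrays differed by almost 2 log2 units. Its centred difference was -2.83 ± 0.52 (adjusted p = 0.0248, limma), against -2.65 ± 0.59 on the deposited values. Septin5, a septin of presynaptic terminals, read -4.08, -3.38, -2.47 and -2.44 against -0.20, -0.37, -0.61 and -0.39. It had a centred difference of -2.79 ± 0.59 (adjusted p = 0.0369, limma).

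The wildtype arrays were also far apart in both genes. Numbl read -3.28 and -2.99 on the first wildtype array and -1.17 and -1.09 on the second, and Septin5 read -2.69 and -2.36 against 0.14 and 0.21. For Numbl and Septin5, the spread between 2 arrays of the same genotype was thus of the order of the difference between genotypes. Other genes that were lower after centring are known from neurons. They were Lrfn4, a synaptic adhesion molecule (-1.75 ± 0.31), and Islr2, a membrane protein of growing axons (-1.70 ± 0.37). Flvcr1, a haem exporter, stood at -1.63 ± 0.25, and Foxk2, a forkhead transcription factor, at -1.74 ± 0.37. Haus4, of the augmin complex of the spindle, stood at -1.97 ± 0.43, and Chchd6, of the complex that shapes mitochondrial cristae, at -1.75 ± 0.34. On the wildtype arrays Foxk2 read -1.76 and -1.62 against 0.14 and 0.25, and Chchd6 -2.73 and -2.44 against -0.84 and -0.63. Flvcr1 read -2.12 and -1.95 against -0.49 and -0.57 there, and Islr2 -3.21 and -3.22 against -2.20 and -1.76. In Foxk2, Chchd6, Flvcr1 and Islr2 too, the wildtype arrays were thus about as far apart as the genotypes.

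In the other direction, Naprt, which starts the synthesis of NAD from nicotinic acid, read 2.40, 2.92, 2.96 and 2.58 in Gja9_null and 1.34, 1.38, 0.06 and 0.03 in Gja9_het. All 4 Gja9_null samples lay above the Gja9_het samples, and the Gja9_het arrays were over 1 log2 unit apart. Its centred difference was 3.07 ± 0.51 (adjusted p = 0.0197, limma). Tmed3, a cargo receptor of the early secretory pathway, was higher by 1.74 ± 0.37, and Lman1, a lectin of the same pathway, by 1.23 ± 0.21 after centring. Irak1, a kinase of Toll-like and interleukin receptor signalling, was higher by 1.46 ± 0.26 and Rnf166, a ubiquitin ligase, by 1.63 ± 0.31. Vdac1, the channel of the outer mitochondrial membrane, was higher by 1.19 ± 0.22 and Skp1, a subunit of a ubiquitin ligase, by 1.15 ± 0.20. Pabpn1, which binds nuclear poly(A) tails, was higher by 1.37 ± 0.31, Tmem63a by 1.36 ± 0.28 and Dmtn, an actin-bundling protein, by 1.29 ± 0.26. All of these higher calls arise only after centring, and on the deposited values Lman1, Rnf166 and Skp1 had overlapping groups. The deposited differences were 2.01 in Naprt, 1.73 in Tmed3, 1.67 in Tmem63a, 1.20 in Vdac1, 1.10 in Dmtn and 1.01 in Pabpn1. Those of Irak1, Rnf166, Lman1 and Skp1 were 0.72, 0.64, 0.64 and 0.61. In some of these genes the wildtype arrays were apart too. Dmtn read 2.23 and 2.17 on the first wildtype array against 3.49 and 3.46 on the second, and Tmed3 2.22 and 1.81 against 0.65 and 0.88. Skp1 read 0.40 and 0.62 against 1.34 and 1.25 there, and Lman1 -2.24 and -2.17 against -1.35 and -1.47. Those of Vdac1 were close, at 1.26 and 1.21 against 1.02 and 1.15. Relative to wildtype, Dmtn was -0.06 in Gja9_null and -1.16 in Gja9_het.

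**Figure D4:**
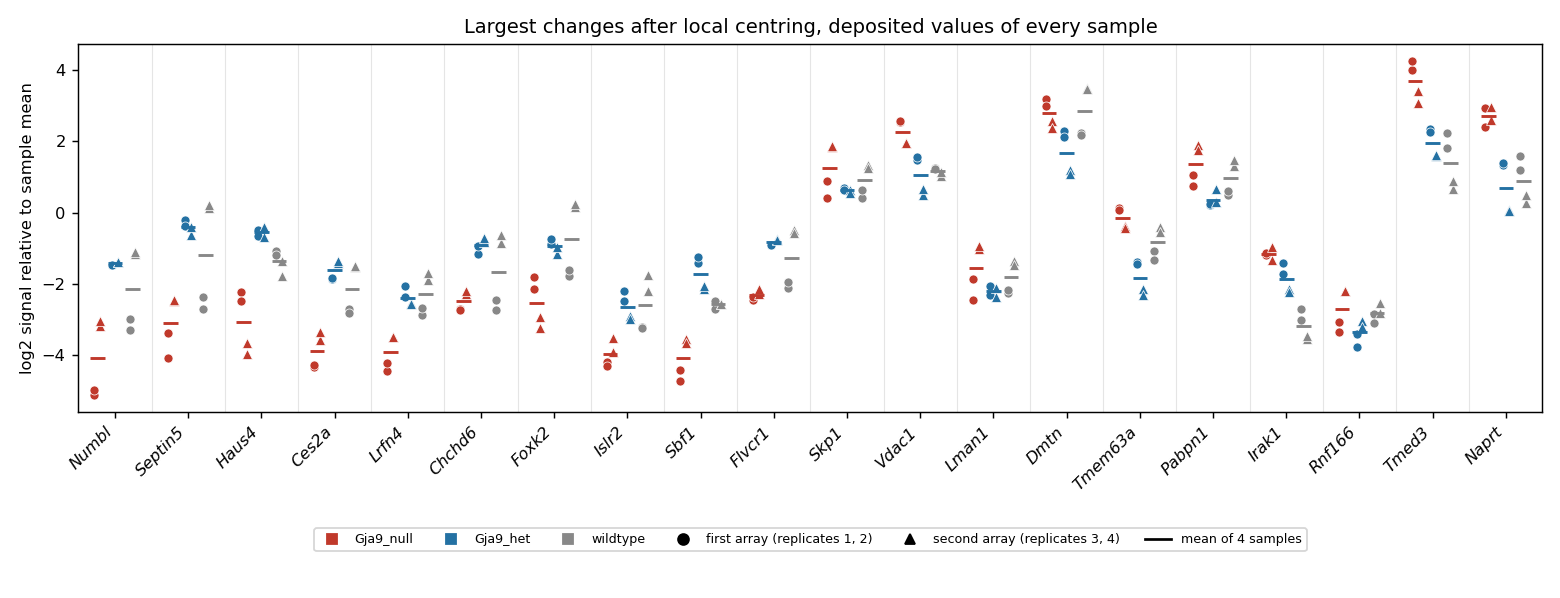
Deposited log2 signal of every sample for the 20 genes of largest change called after local centring, 10 lower (left) and 10 higher (right); symbols and colours are those of the plot of genes called lower. The wildtype arrays lie far apart in Numbl and Septin5, and the red and blue samples of Skp1, Lman1 and Rnf166 overlap before centring.

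Genes with several clones give a second reading of the same transcript at another place on the array. Of 2586 such genes, 2520 have clones further apart than a stretch. In 6 of these (0.238%) every clone was lower at an unadjusted p under 0.05, and in 3 (0.119%) every clone was higher. Of all 13443 probes taken alone, 9.72% were lower and 3.5% higher at that p, so a small number of such genes is no sign of agreement between clones. The lower ones were Rprd1b, Hmga2, Tmc6, Telo2, Fermt2 and Bbox1, and the higher ones Drg2, Psma4 and Cd9. Hmga2, a chromatin protein of embryonic and progenitor cells, had 2 clones of the same size, each at -1.14. After centring, the lowest and highest of these clones were -0.88 and 0.20. Drg2, a GTP-binding protein that binds the translation machinery, read 0.44, 0.53, 0.23 and 0.36 in Gja9_null and -1.01, -1.05, -0.52 and -0.53 in Gja9_het. The groups did not overlap, and its clones differed by 1.49 and 0.85 (adjusted p of the mean = 0.113, limma). Cd9, a tetraspanin, had clones at 1.44 and 1.13, and Psma4, a proteasome subunit, at 0.97 and 0.77.

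After local centring, every clone was higher in 22 genes (0.873%) and lower in 12 (0.476%) at an unadjusted p under 0.05, where 9.22% of single probes were higher and 10.6% lower. Drg2 was higher and Rprd1b, Tmc6 and Bbox1 were lower in both analyses. Rprd1b was the 1 gene with several clones that was called on the deposited values with every clone passing alone. After centring there were 4 called genes of this kind, named here after their values were seen. Rprd1b and Bbox1 were lower, and Aplp1 and Irf2bpl higher. Bbox1, the last enzyme of carnitine synthesis, read -1.36, -1.52, -0.95 and -1.11 in Gja9_null and -0.51, -0.56, 0.38 and 0.21 in Gja9_het. Its groups did not overlap, and its centred clones were -1.58 and -0.84 (adjusted p of the mean = 0.0345, limma). Aplp1, a neuronal relative of the amyloid precursor protein, read 1.54, 1.49, 2.04 and 1.88 against 1.43, 1.25, 0.80 and 0.76. All 4 Gja9_null samples were higher, by a small margin on the first arrays, and its centred clones were 1.02 and 1.18 (adjusted p of the mean = 0.0197, limma).

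Across genes, 2 clones of the same gene shared little of the difference. Over the 1600 genes with exactly 2 clones that far apart, the correlation across genes of 1 clone's difference with the other's was r = 0.08 on the deposited values and 0.09 after centring. Both clones had the same sign in 53.6% of these genes. The correlation of their mean level over the 12 samples was r = 0.41. Among the 249 genes with a clone beyond 1 log2 unit, 145 (58.2%) had both clones of the same sign, and after centring 58 of 94 (61.7%). Genes are not independent replicates, and no p is given. Pdgfra, the receptor that marks oligodendrocyte precursors, is an example of disagreement, with clones at -0.14, 0.19, -1.19 and -2.16. The clones at -1.19 and -2.16 lie in stretch 47. After centring the clones stood at -0.25, 0.57, -0.30 and -0.58, in the same order. Calb1, the calcium-binding protein calbindin of Purkinje cells and interneurons, is an example of the opposite, with all 4 clones lower, at -1.09, -0.87, -0.69 and -1.30.

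Calb1 read -2.03, -2.02, -2.65 and -2.20 in Gja9_null and -1.27, -1.08, -1.35 and -1.25 in Gja9_het. The groups did not overlap. The mean difference of its clones was -0.99 ± 0.38 (adjusted p = 0.248, limma), which did not pass, and -0.87 ± 0.22 after centring (adjusted p = 0.0708, limma). The other measured genes of the cerebellar list were Car8 at -0.33 ± 0.79 and Cbln1 at -0.48 ± 0.40. Their median was -0.48, against -0.17 over all features, and 0 of 3 were called.

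Of the 23 connexin and pannexin genes listed, 2 were measured, and neither passed. Gja1, the main astrocyte connexin, read 0.05, 0.01, 0.98 and 1.29 in Gja9_null and 0.41, 0.36, 0.39 and 0.42 in Gja9_het. The Gja9_null arrays lay on either side of Gja9_het, with a difference of 0.19 ± 0.41 (adjusted p = 0.861, limma). Panx1, a pannexin channel that opens to the outside of the cell, read -2.34, -2.31, -1.33 and -1.57 against -1.07, -1.16, -1.34 and -1.51. The groups overlapped, with a difference of -0.62 ± 0.36 (adjusted p = 0.433, limma).

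Genes that lie near Gjd2 on chromosome 2 were listed from RefSeq, within 5000000 bases of its start. Of 94 such genes 19 were measured. None was called on the deposited values, where 0.273% of all features were, and 1, Bbox1, was called lower after centring, where 0.935% of all features were. By limma 2 of the 19 were lower at an unadjusted p under 0.05, Bbox1 and Bahd1, and 0 were higher, a share near the 11.3% lower and 3.64% higher of all features. Bahd1, a heterochromatin protein, differed by -0.78 ± 0.32. The median of the 19 was -0.15 before and -0.03 after centring.

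Synapses were covered by few probes. Of 9 measured genes of the list for glutamate receptors and excitatory synapses, 0 were called, and 7 had a difference below 0. Their median was -0.49 before and -0.06 after centring. Nlgn2 is on this list although it is an adhesion molecule known mainly from inhibitory synapses. It read 1.15, 1.22, 1.70 and 1.77 in Gja9_null and 1.90, 1.98, 1.95 and 2.06 in Gja9_het. These groups did not overlap, with a difference of -0.51 ± 0.30 (adjusted p = 0.434, limma). Dlg4, the main scaffold of the postsynaptic density, differed by -0.64 ± 0.57. Of 10 genes of the synaptic vesicle, 0 were called, with a median of 0.02 before and 0.25 after centring. Rab3a, a vesicle GTPase, differed by 0.74 ± 0.37 and Cplx1, a complexin that controls fusion, by -0.98 ± 0.43, each with groups apart.

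Of 7 measured GABAergic interneuron markers 0 were called, with a median of -0.18 before and 0.05 after centring. Interneurons are among the cells in which connexin36 is best known. Gad1, which makes GABA, read -0.47, -0.34, 1.28 and 1.73 in Gja9_null and 0.94, 0.84, 0.65 and 0.50 in Gja9_het. The Gja9_null arrays were on either side of Gja9_het. Of 11 pan-neuronal markers 0 were called, and the median was -0.10 before and 0.03 after centring. Nefm, a neurofilament subunit, differed by -1.31 ± 0.53 (adjusted p = 0.269, limma), and Elavl4, a neuronal RNA-binding protein, by 0.36 ± 0.49. After centring Nefm stood at -0.50 and Elavl4 at 0.55.

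The monoamine and cholinergic list had a median of -0.53 before and -0.49 after centring, -0.32 under cyclic loess and -0.26 under quantile normalization. Of its 5 measured genes 0 were called, and 4 had a difference below 0. Htr7, a serotonin receptor, differed by -1.34 ± 0.29 (adjusted p = 0.0723, limma), and Ache, which breaks down acetylcholine, by -0.94 ± 0.32 (adjusted p = 0.206, limma). Both had groups apart. After centring Htr7, whose probe lies in stretch 47, stood at -1.01, and Ache at -0.49.

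Glial and other cell markers showed no calls on the deposited values apart from Ak8. Of 13 astrocyte and radial glia markers 7 had a difference below 0, with a median of -0.02 before and 0.37 after centring. Sox9, a transcription factor of glial cells, differed by -1.17 ± 0.49, opposite to Slc1a3. Of 5 oligodendrocyte and myelin markers 4 were below 0, with a median of -0.53 before and -0.15 after centring. Mbp read 2.94, 2.88, 2.36 and 3.51 against 2.82, 3.63, 3.71 and 3.66, and its difference of -0.53 ± 0.92 was smaller than its error.

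Of 8 microglia and immune cell markers, Tyrobp, an adaptor of microglial receptors, differed by -1.32 ± 0.42 (adjusted p = 0.174, limma), and the list's median was -0.15. After centring Tyrobp stood at -0.61. Of 5 choroid plexus and ependyma markers, Ak8 was called lower, where 0.263% of all features were. In the same list Ttr, transthyretin of the choroid plexus, differed by 0.33 ± 0.34 and Ak7, another ciliary adenylate kinase, by 0.63 ± 0.50. Among 6 erythroid genes, which mark blood in the tissue, Alas2, of haem synthesis, differed by -1.71 ± 0.34 (adjusted p = 0.0576, limma) and Hbb-b1, a globin, by 0.73 ± 0.41. The probe of Alas2 lies in stretch 47, and after centring Alas2 stood at -0.35 and Hbb-b1 at 0.38. The part of these markers in the calls was not tested.

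Among 25 cytokine receptor and innate immune genes, Il17rc and Il20rb were called lower, where 0.263% of all features were, and the median was -0.27. Both probes lie in stretch 47, and Il20rb went to -0.35 ± 0.18 after centring (adjusted p = 0.273, limma). After centring, Il17rc and Oas1a, an interferon-induced enzyme (-1.31 ± 0.29), were called lower and Irak1 and Irgq higher, where 0.935% of all features were lower and 0.473% higher. The centred median of the list was 0.03. Of 62 chromatin genes 1 was called lower, Smarcad1, where 0.263% of all features were, with a median of -0.07. Smarcad1 lies in stretch 47 and went to -0.53 after centring. Kat2b, a histone acetyltransferase, differed by -1.36 ± 0.37 (adjusted p = 0.124, limma), and its groups were apart. Centring moved Kat2b to -0.75. Of 21 cadherins, catenins and junction scaffolds, 0 were called. After centring 1 was called lower, Cdh1, E-cadherin, where 0.935% of all features were. The probe of Cdh1 lies in stretch 47. Cdh1 read -3.62, -3.46, -2.10 and -2.39 in Gja9_null and -1.14, -1.26, -0.69 and -0.80 in Gja9_het, apart in every sample. Its difference was -1.92 ± 0.42 (adjusted p = 0.0723, limma) and -1.60 ± 0.24 after centring (adjusted p = 0.0193, limma).

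Of 14 Notch and Wnt genes 0 were called before centring and Numbl was called lower after it, where 0.935% of all features were. Tcf7l2, a transcription factor of Wnt signalling, differed by -1.50 ± 0.52, and Numb, the relative of Numbl, by -0.91 ± 0.33. Of 28 axon guidance genes 0 were called. Efnb1, an ephrin ligand, differed by -2.30 ± 0.70 (adjusted p = 0.159, limma) and by -0.63 ± 0.40 after centring. Of 17 apoptosis genes 0 were called. The largest changes there were in Fadd, an adaptor of death receptors, at -1.46 ± 0.46, and Aifm1, a mitochondrial flavoprotein, at -1.34 ± 0.37. Centring moved Fadd to -0.76 and Aifm1 to -0.73.

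The large housekeeping lists had no call either, in the deposited or in the centred values. They were 62 cytosolic ribosomal proteins, 70 genes of oxidative phosphorylation, 93 of the proteasome and ubiquitin enzymes, and 81 chaperones and stress genes. Medians were 0.01, -0.06, -0.22 and -0.19 before centring and 0.22, 0.09, 0.03 and 0.01 after it. Hspa5, a chaperone of the endoplasmic reticulum, differed by 1.06 ± 0.34, and Cct8, a subunit of the chaperonin for actin and tubulin, by -1.18 ± 0.33. The lactate transporter gene Slc16a3, of the glycolysis list, read -4.29, -4.52, -3.41 and -3.83 in Gja9_null and -1.78, -1.91, -2.23 and -2.19 in Gja9_het. Its groups were apart, with a difference of -1.98 ± 0.42 (adjusted p = 0.0707, limma). The probe of Slc16a3 lies in stretch 47, and its difference was -1.09 after centring.

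**Figure D5:**
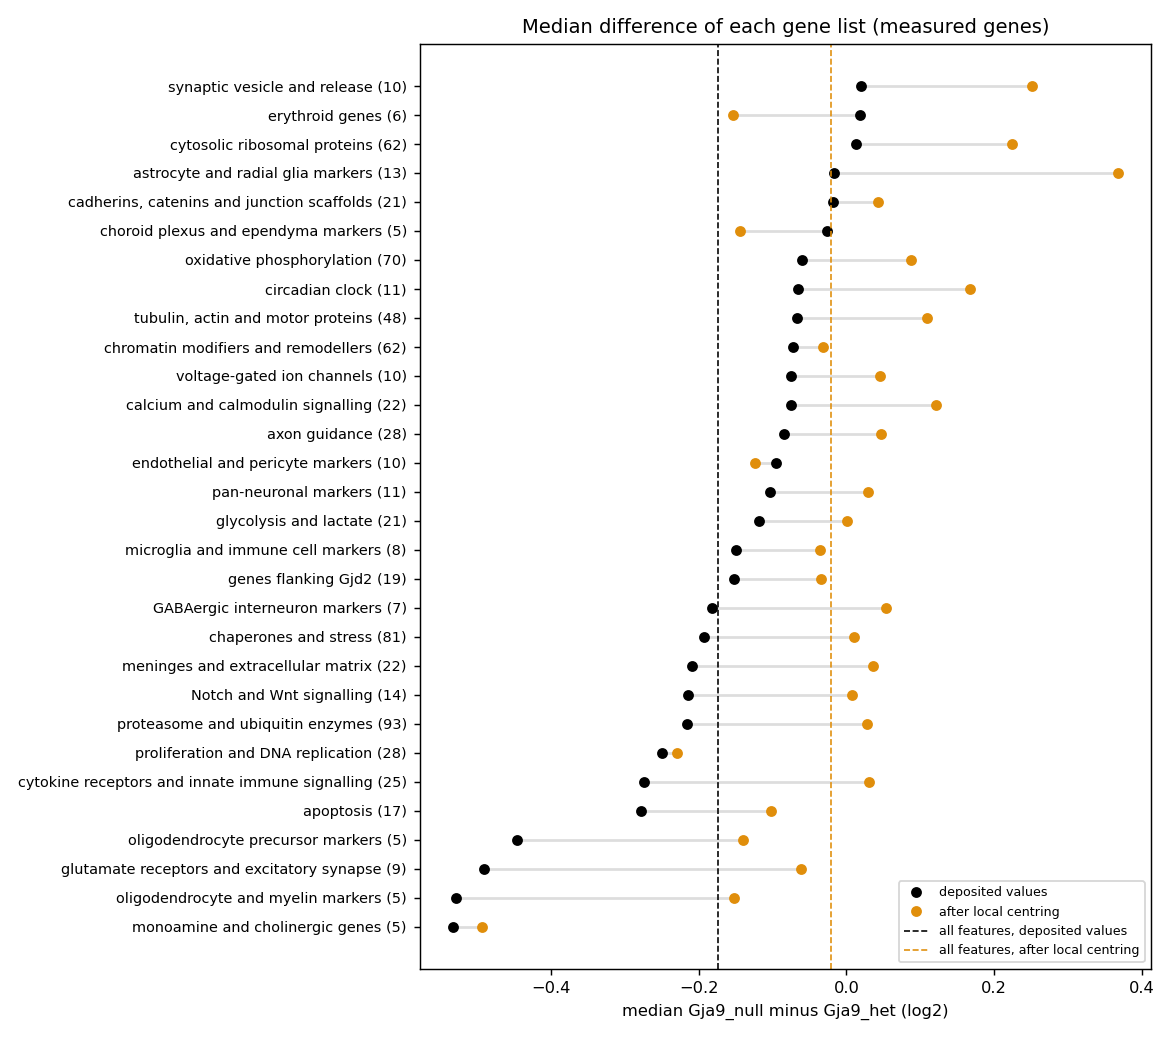
Median Gja9_null minus Gja9_het difference (log2, horizontal) of each gene list, with the number of measured genes in brackets, on the deposited values (black) and after local centring (orange); dashed lines are the medians over all features, -0.17 and -0.02. The monoamine and cholinergic list stays near -0.5, while the glutamate receptor list moves from -0.49 to -0.06.

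The wildtype samples give these genes another reference. All comparisons share samples, so their values stand side by side without a test of overlap. All 25 features lower in Gja9_null than in Gja9_het were also below wildtype. Of them, 16 passed the test as lower in Gja9_null against wildtype, where 0.21% of all features did. The 25 were picked for low values in the same Gja9_null samples, so these counts are no separate support. In 20 of the 25 the Gja9_het mean was within 0.5 log2 units of wildtype, and in 18 it was above. The shares over all features were not computed for the 20 and the 18. Between Gja9_het and wildtype, 0 of 9514 features were called. Cdk13 was -2.51 in Gja9_null and -0.11 in Gja9_het relative to wildtype, and Aagab was -1.79 and 0.00. The 4 genes called both ways are among those with Gja9_het above wildtype. Sbf1 was -1.51 in Gja9_null and 0.86 in Gja9_het, Il17rc -1.94 and 0.59, Ces2a -1.73 and 0.52, and Rprd1b -1.42 and 0.46. For these 4 genes the difference from wildtype did not pass in either genotype.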

How the data were processed

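Total RNA of mouse brain was extracted with Trizol and given Cy5 or Cy3 by direct incorporation, per the labels' protocols. The deposited values are log2 signals relative to each sample's mean. Their base was found by trial: 2 raised to the values has a mean of 1 in every sample. The sources used here do not state the authors' background correction, dye correction or probe filter. Dyes come from the label field, which the labelling protocol contradicts for wildtype 3 and Gja9_null 1.

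Probes were named through the array's probe table, updated by RefSeq, which gave 10356 of 13443 measured probes a single gene. Sample medians lay between -0.98 and -0.81. The test was limma 3.58.1 under R 4.3.3 (lmFit, eBayes, two-sided). The model held genotype and dye for all 12 samples, with a random array block (consensus correlation 0.928), and Benjamini-Hochberg adjustment ran over 9514 features. The number of arrays limits the precision.

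Named genes were the called ones (up to 15 each way, filled to 5 by smallest p), the 10 of largest change each way after local centring, genes of which every clone passed, up to 4 per list by smallest p, and measured connexins and pannexins. Other genes in the text were chosen after their values were seen. The samples, the rule and the 36 gene lists were chosen with earlier results of these data known. Alternatives covered the array block, local centring, normalization, probe filters, dye, samples and thresholds. The replicate numbers pair no samples between genotypes, as deviations of same-numbered samples correlated at 0.01 to 0.05.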

Additional observations from a re-analysis of the deposited data

Results flagged for a closer look

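In 7 of 330 groups of 4 samples (2.12%), over the 165 named genes, a single sample lay far from the other 3, where chance does so in about 1 of 20 groups of independent samples. Both colours of an array are close to duplicates here, so that share is no yardstick for these groups. In Gja9_null these samples read -0.87 for Bcl11b, a transcription factor of cortical projection neurons, and -1.88 for Gabra3, a GABA receptor subunit. In Gja9_het they read -2.16 for Eno3, an enolase, -0.64 for Kcnd2, a potassium channel, and 2.82 for Mbp. The other Gja9_het values were -1.27 for Rnaseh1 and 1.22 for Tyrobp. Of these genes only Rnaseh1 was called, and its 4 Gja9_het samples stayed between -1.42 and -1.27, above all Gja9_null samples.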

How the results depend on the processing

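Against 26 calls (1 higher, 25 lower), limma called 2119 features (587 higher, 1532 lower) without an array block, 44 (3 higher, 41 lower) with the replicate number as a replicate block, 64 (6 higher, 58 lower) without the dye term and 119 (13 higher, 106 lower) at an adjusted p under 0.10. The replicate block kept all 26 calls, though the numbers do not pair these samples. With array weights 31 were lower, and with the brightest probe of each gene 13 were called (12 lower). With trend and robust eBayes 5 were called (4 lower), and on only the 8 Gja9_null and Gja9_het samples 1, with 0 lower, a feature not among the 26. Counts were 0 for array means, local centring with array means, median centring, quantile normalization, cyclic loess, every probe tested alone, an adjusted p under 0.01, without the dimmest 25% of probes and without the last 3 stretches. At an unadjusted p under 0.05 these had between 939 and 1776 features. After local centring 134 were called (45 higher, 89 lower). Leaving out each sample in turn gave 0 to 20 calls, 0 to 2 higher and 0 to 19 lower. Without the first Gja9_null array 95 were called (1 higher, 94 lower), without the second 804 (59 higher, 745 lower), without the first Gja9_het array 0 and without the second 1 (0 higher, 1 lower). The cause of these changes was not tested.

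Windows of other width were chosen after seeing the data: local centring over 25 probe numbers gave 100 calls (33 higher, 67 lower), and over 100 gave 124 (44 higher, 80 lower). Local centring without the first Gja9_null array gave 116 (9 higher, 107 lower), without the second 26 (4 higher, 22 lower), without the first Gja9_het array 103 (36 higher, 67 lower) and without the second 257 (146 higher, 111 lower). With 96 stretches the lowest stretch median was -1.27 and with 24 it was -0.68. Of 165 named genes 13 changed sign under local centring, alone and with array means, 2 under quantile normalization, 2 under cyclic loess and 0 to 5 under each other alternative, none with a call. Those beyond 1 SE on both sides were Klc1 (0.28) and Rpl29 (0.34) under both forms of local centring, Sst (0.52) under quantile normalization and Fzd5 (0.41) under cyclic loess. The medians of 8 of the 36 gene lists, among them apoptosis, oligodendrocyte, glutamate receptor and monoamine genes, were below 0 under each of 5 scalings. Those of 3 lists were above 0 under each. The median over all features was below 0 under each of the 5 as well, between -0.17 and -0.01. The 8 lists include immediate early genes, with 1 measured gene, and cerebellar markers, with 3.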
